A study of Mus musculus with 5 samples.

Results

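The GABA-A receptor subunit genes Gabra2, Gabra3, Gabra4, Gabra5, Gabrb1, Gabrb2 and Gabrd were examined in total RNA of the mouse striatum, the forebrain region most affected in Huntington's disease. They were taken by gene name and make up 7 of the 26369 genes in the count table and 7 of the 19 genes named there as subunits of this receptor family. The R6/1 mice bear a transgene with exon 1 of the human HD gene, in which the CAG tract is expanded, to 115 by the labels (n = 2 libraries), and they were compared with wild-type (WT) mice (n = 3 libraries). Both groups were on a mixed CBA and C57BL/6 background. The R6/1 transgene is a fragment of the human gene added to an intact mouse genome, and the sources used here do not give the age or sex of the mice or whether tissue was pooled. Nothing in those sources ties each library to its own animal, so p-values measure the spread between these libraries. The libraries were made from total RNA after removal of ribosomal RNA, so unspliced transcripts could be counted too.

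GABA-A receptors are chloride channels built from alpha, beta and further subunits around a central pore, and they carry most of the fast inhibition in the brain. Receptors with a gamma subunit gather at synapses and give brief responses, whereas those with the delta subunit, usually partnered with alpha 4 in the forebrain, and many with alpha 5 lie outside synapses and sense low ambient GABA. The principal neuron of the striatum, the medium spiny neuron, both releases GABA and is held in check by it.

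Total counts were 34379064 and 29871306 in the R6/1 libraries and 19630036 to 23046266 in the WT libraries, so every R6/1 library was deeper. Levels are given as CPM (counts scaled to a common library total) after TMM scaling of the library totals, on which 1 count is worth 0.0277 to 0.0527 CPM. Markers of medium spiny neurons were present in every library, and 20 of 20 were called lower in R6/1, against 12.8% of all tested genes. Their summed levels were 4718 and 4821 CPM in R6/1 libraries and 13142 to 15042 CPM in WT libraries. In bulk tissue, fewer cells of a type and less RNA per cell cannot be told apart. Choroid plexus markers did not follow genotype, with summed levels of 131 and 49.3 CPM in R6/1 and 3797, 3708 and 102 CPM in WT replicates 1 to 3. Those of cortical projection neurons summed to 538 and 420 CPM in R6/1 libraries and to 502, 867 and 705 CPM in WT replicates 1 to 3, and no marker of either list was at 0 in all libraries. Of the 10 choroid plexus markers, 6 were called lower, against 12.8% of all tested genes. Without WT replicate 3 the number was 10, where 9.75% of all tested genes were lower. It was 0 without WT replicate 1 or 2, where 10.1% and 14.9% of all tested genes were lower. The calls were also lost without either R6/1 replicate. A gene was called where its Benjamini-Hochberg adjusted p in edgeR's quasi-likelihood test over all 17202 tested genes was below 0.05. All 7 subunit genes passed the filter on low counts.

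Gabra4 and Gabrb1 lie on opposite strands of chromosome 5, and their annotated spans overlap at the starts. The first was called lower in R6/1 and the second was not called, so the sequences before their annotated starts are shown. Because of the overlap, each sequence lies inside the annotated span of the other gene, not in a stretch between them. Each run is the 250 bases before the annotated start, 5′ to 3′ on the gene's own strand, from RefSeq on GRCm38.p6, at chr5:71658309-71658558 (minus strand) for Gabra4 and chr5:71657671-71657920 (plus strand) for the first of the Gabrb1 starts.
Gabra4: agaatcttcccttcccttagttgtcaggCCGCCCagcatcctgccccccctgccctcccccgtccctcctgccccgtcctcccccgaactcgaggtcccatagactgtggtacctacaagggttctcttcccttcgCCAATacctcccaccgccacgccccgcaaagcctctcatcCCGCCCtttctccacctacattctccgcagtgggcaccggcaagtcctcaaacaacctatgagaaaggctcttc
Gabrb1: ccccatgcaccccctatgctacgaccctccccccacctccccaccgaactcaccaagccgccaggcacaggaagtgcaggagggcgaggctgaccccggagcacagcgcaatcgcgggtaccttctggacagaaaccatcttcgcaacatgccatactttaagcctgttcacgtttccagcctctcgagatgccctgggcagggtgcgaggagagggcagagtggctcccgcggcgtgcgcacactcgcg
Capitals mark matches, on either strand, to any of the motifs searched, which were the CREB core TGACG, the GC box GGGCGG, the EGR motifs GCGTGGGCG and GCGGGGGCG, the TATA box as TATAAA, the E-box CACGTG, the CCAAT box and the NRF1 motif. The Gabra4 run held the GC box GGGCGG on its minus strand at positions -222 and -74 before the start and CCAAT on its plus strand at -114, with no overlap between them. GGGCGG occurs in 32.7% and CCAAT in 33.8% of the 32851 windows of the same length in the RefSeq table. The Gabrb1 run held none of these letters. A window before another Gabrb1 start, not shown, held the NRF1 motif at -16, which occurs in 3.74% of all windows. CG dinucleotides numbered 12 in the Gabra4 run and 18 in the Gabrb1 run, against a median of 6 over all windows. A match is a description of letters and does not show a binding site. The table held windows for 6 of the 7 genes.

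Gabrd and Gabra4, which encode the usual partners of receptors outside synapses, fell in R6/1, and the other 5 subunit genes did not pass the test. These 2 of 7 stand against 12.8% of the 17202 tested genes called lower, and 0 of 7 against 9.72% called higher, 22.6% in all. Gabrd, the delta subunit gene (ENSMUSG00000029054), had 38.8 and 42.5 CPM in R6/1 libraries, against 127, 135 and 137 CPM in WT libraries. The raw counts were 1398 and 1333 in R6/1 and 2833, 2559 and 3032 in WT, so the deeper R6/1 libraries held fewer Gabrd reads even before scaling. Both R6/1 libraries lay far below every WT library. Mean levels were 40.6 ± 2.63 CPM in R6/1 (SD, n = 2) and 133 ± 5.22 CPM in WT (SD, n = 3), a log2 fold change of -1.71 (SE 0.08, edgeR adjusted p = 9.46e-05). Only 2.50% of the 17202 tested genes had a log2 fold change as low as or lower than that of Gabrd. The call held under all 14 alternative settings, with log2 fold changes of -1.77 to -1.59.

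Gabra4, the alpha 4 subunit gene (ENSMUSG00000029211), had 188 and 199 CPM in R6/1 libraries, against 263, 277 and 251 CPM in WT libraries. Every R6/1 value lay below every WT value. Means were 193 ± 7.84 CPM in R6/1 (SD, n = 2) and 264 ± 13.1 CPM in WT (SD, n = 3), a log2 fold change of -0.45 (SE 0.07, edgeR adjusted p = 0.00663). The call was lost without R6/1 replicate 1 and with choroid plexus markers as a covariate (edgeR adjusted p = 0.0685). With that covariate 6.28% of all tested genes were called lower, in place of 12.8%. Over the 14 alternative settings the log2 fold change of Gabra4 was -0.49 to -0.33. Without normalization beyond the library total the split over all genes was 1694 lower and 3237 higher, in place of 2210 lower and 1672 higher, and Gabrd and Gabra4 were still called lower. The median log2 fold change was 0.11 over the 7 subunit genes and -0.0079 over all tested genes.

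**Figure D1:**
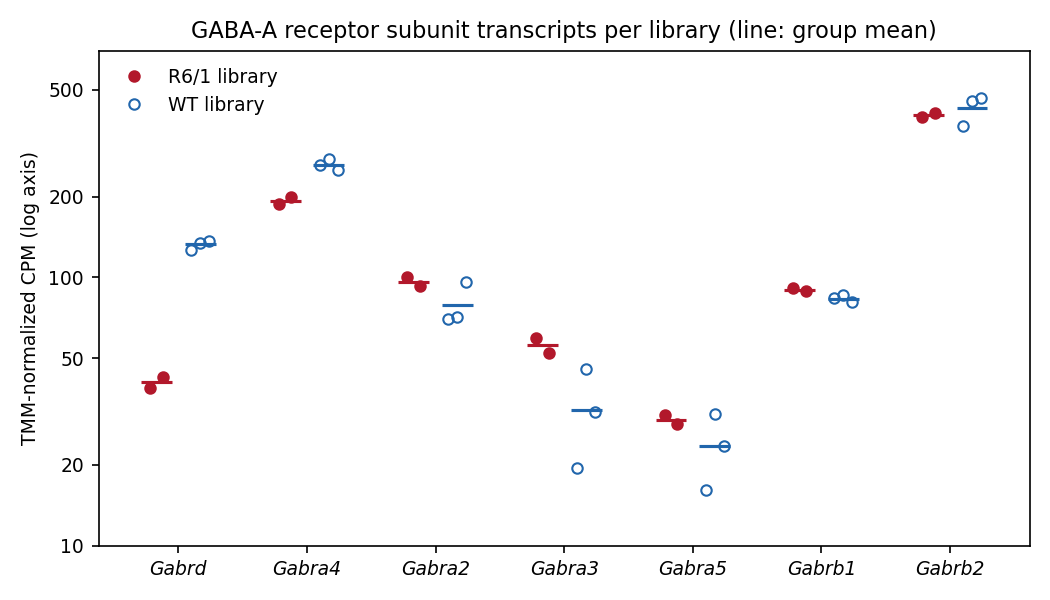
TMM-normalized CPM on a log axis for the 7 subunit genes, with filled points for the R6/1 libraries (n = 2), open points for the WT libraries (n = 3) and a line at each group mean. Gabrd sits at 38.8 and 42.5 CPM in R6/1 and at 127 to 137 CPM in WT, while the groups of Gabra2, Gabra5 and Gabrb2 overlap.

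Of the alpha subunit genes of synaptic receptors, Gabra2 and Gabra3 had higher mean levels in R6/1, but neither passed. Gabra2 (ENSMUSG00000000560), whose alpha 2 subunit is common at synapses of medium spiny neurons, had 100.1 and 92.7 CPM in R6/1 libraries, against 70.0, 71.0 and 95.9 CPM in WT libraries. WT replicate 3 lay between the R6/1 libraries, so the groups overlapped (log2 fold change 0.29, SE 0.14, edgeR adjusted p = 0.185). Without WT replicate 3 the higher level passed (log2 fold change 0.45, edgeR adjusted p = 0.0239), whereas leaving out both WT replicates 1 and 2 gave a log2 fold change of 0.0097 (edgeR adjusted p = 0.960). WT replicates 1 and 2 were the libraries high in choroid plexus transcripts, with 3466 and 3341 CPM of Ttr, against 69.4 CPM in WT replicate 3. The log2 fold change of Gabra2 was 0.02 with choroid plexus markers as a covariate. Only WT replicates 1 and 2 were high in them, so this fit largely repeats the one without these libraries. The part of choroid plexus tissue in the Gabra2 level was not tested otherwise.

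Gabra3, the alpha 3 subunit gene on the X chromosome (ENSMUSG00000031343), had 59.3 and 52.4 CPM in R6/1 libraries, against 19.4, 45.6 and 31.5 CPM in WT libraries. Every R6/1 value lay above every WT value, and the WT libraries spread over more than the distance between the groups. Means were 55.9 ± 4.90 CPM in R6/1 (SD, n = 2) and 32.2 ± 13.1 CPM in WT (SD, n = 3), a log2 fold change of 0.80 (SE 0.29, edgeR adjusted p = 0.0896). It passed under 4 of the 14 alternative settings, among them without WT replicate 2 (log2 fold change 1.14, edgeR adjusted p = 0.00877), without both WT replicates 1 and 2 (0.83, edgeR adjusted p = 0.00423) and with cortical markers as a covariate (1.23, edgeR adjusted p = 0.00271).

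Gabra5 (ENSMUSG00000055078), whose alpha 5 subunit is known best for receptors outside synapses in the hippocampus, had 30.6 and 28.4 CPM in R6/1 libraries, against 16.1, 31.0 and 23.5 CPM in WT libraries. WT replicate 2 was above both R6/1 libraries and WT replicate 1 far below them (log2 fold change 0.33, SE 0.23, edgeR adjusted p = 0.338). Without WT replicate 2 the log2 fold change was 0.58 and passed (edgeR adjusted p = 0.0445), as it did with the cortical covariate (0.64, edgeR adjusted p = 0.0183). WT replicate 1 was the lowest and WT replicate 2 the highest WT library for both Gabra3 and Gabra5.

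The same held for 11 of 14 markers of cortical projection neurons, but not for Rorb, 6330527O06Rik and Rasgrf2. Slc17a7, which loads glutamate into synaptic vesicles in cortical neurons, had 50.0 and 18.4 CPM in R6/1 libraries, against 22.6, 136 and 82.0 CPM in WT replicates 1 to 3. Tbr1, a transcription factor of cortical neurons, had 10.5 and 3.86 CPM in R6/1 libraries, against 3.85, 19.2 and 14.3 CPM in WT replicates 1 to 3. The R6/1 libraries differed from each other in Slc17a7 and Tbr1 by more than they did in Gabra3 or Gabra5. This did not hold for every marker of the list, as Rasgrf2 had 41.0 and 40.8 CPM in R6/1 libraries. Of the 14 cortical markers tested, 2 were called lower and 0 higher, against 12.8% lower and 9.72% higher among all tested genes. Without WT replicate 1 the number lower was 4, where 10.1% of all tested genes were lower. It was 1 without WT replicate 2 and 0 without WT replicate 3, where 14.9% and 9.75% of all tested genes were lower. The calls were also lost without either R6/1 replicate. The part of cortical neurons in the levels of Gabra3 and Gabra5 was not tested beyond the covariate fit. The cortical markers named were chosen after their values were seen.

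**Figure D2:**
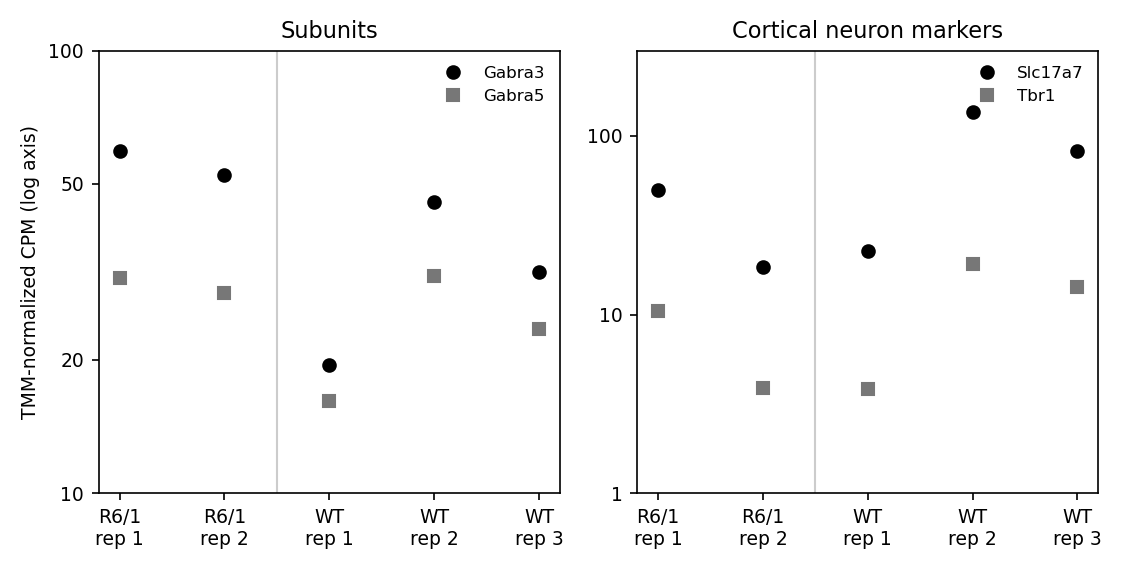
TMM-normalized CPM on log axes in each library (R6/1 replicates 1 and 2, then WT replicates 1 to 3) for Gabra3 and Gabra5 (left) and for the cortical markers Slc17a7 and Tbr1 (right). WT replicate 1 is the lowest WT library for all 4 genes, at 19.4 CPM for Gabra3 and 22.6 CPM for Slc17a7.

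The beta subunits complete the GABA binding site together with alpha subunits. Gabrb1, the beta 1 subunit gene (ENSMUSG00000029212), had 91.0 and 88.7 CPM in R6/1 libraries, against 83.5, 86.0 and 80.7 CPM in WT libraries. The R6/1 values were just above the WT values, and the difference did not pass (log2 fold change 0.11, SE 0.07, edgeR adjusted p = 0.305). Gabrb2, the beta 2 subunit gene (ENSMUSG00000007653), which took the most reads of the 7 genes, had 395 and 411 CPM in R6/1 libraries, against 368, 455 and 465 CPM in WT libraries. The R6/1 values lay inside the WT range (log2 fold change -0.09, SE 0.11, edgeR adjusted p = 0.579). Groups did not overlap for 4 of the 7 genes, against 54.1% of all tested genes. Gabrd and Gabra4 were lower in R6/1 and Gabra3 and Gabrb1 higher, where 26.9% of all tested genes were lower and 27.2% higher without overlap.

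In the authors' deposited table, Gabrd had a log2 fold change of -1.68 (adjusted p = 8.19e-98) and Gabra4 one of -0.43 (adjusted p = 5.84e-08). The other 5 subunit genes had adjusted p-values of 0.0869 to 0.770 in the authors' deposited table.

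Ratios of transcripts counted in the same library do not depend on scaling between libraries. Gabrd reads were 0.206 and 0.214 of Gabra4 reads in R6/1 libraries, against 0.483, 0.486 and 0.545 in WT libraries. Delta transcripts were lower relative to those of their alpha 4 partner in both R6/1 libraries than in any WT library, with a difference of -1.26 on the log2 scale. An exact two-sided permutation test over the libraries gave p = 0.1, the smallest that 10 arrangements allow, so no ratio could pass 0.05. The log2 ratio of Gabra4 to Gabra2 was 0.91 and 1.10 in R6/1 libraries and 1.91, 1.96 and 1.39 in WT libraries (difference -0.75, exact permutation p = 0.2). The groups of this ratio did not overlap, with WT replicate 3 nearest to R6/1.

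The other 3 ratios overlapped between the groups. The log2 ratio of Gabra3 to Gabra2 was -0.75 and -0.82 in R6/1 libraries and -1.85, -0.64 and -1.60 in WT libraries (exact permutation p = 0.4). That of Gabra5 to Gabra2 differed by 0.07 between the groups (exact permutation p = 1) and that of Gabrb2 to Gabrb1 by -0.19 (exact permutation p = 0.3). After adjustment over these 5 pairs the values were 0.5 for 4 pairs and 1 for Gabra5 over Gabra2 (exact permutation tests).

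Gabra4 and its neighbour Gabrb1 were compared as a further pair, chosen after their values were seen. The log2 ratio of Gabra4 to Gabrb1 was 1.05 and 1.17 in R6/1 libraries and 1.65, 1.69 and 1.64 in WT libraries. WT libraries differed little from each other in this ratio, and both R6/1 libraries were lower (difference -0.55, exact permutation p = 0.1, the smallest possible). The annotated spans of these genes overlap at their starts on opposite strands. The library kit marks strand, but the strand setting of the counting is not given in the sources used here, so reads from the overlap cannot be assigned to one gene.

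**Figure D3:**
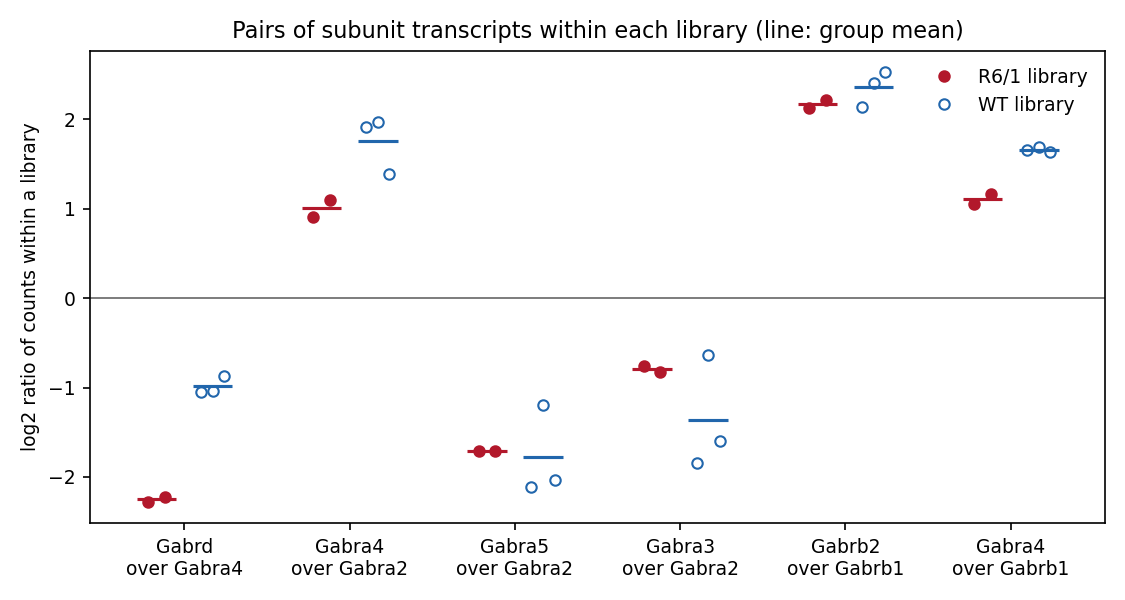
Log2 ratio of raw counts, each plus 0.5, within each library for 6 pairs of subunit genes, with filled points for R6/1 libraries (n = 2), open points for WT libraries (n = 3) and a line at each group mean. For Gabrd over Gabra4 the R6/1 libraries are at -2.28 and -2.23 and the WT libraries at -1.05, -1.04 and -0.88.

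Levels of different subunits can be compared only per length. On the authors' signal, size-factor normalized counts per kb of gene length, Gabrb2 took the largest share of the summed signal of the 7 genes, 41.7 ± 0.842% in R6/1 and 37.9 ± 1.83% in WT (SD, n = 2 and n = 3). Gabra4 followed with 21.1 ± 0.714% in R6/1 and 24.8 ± 2.28% in WT. Gabrd held 5.68% and 6.16% in R6/1 libraries, against 17.5%, 15.9% and 16.4% in WT libraries, so that it ranked 3 of the 7 in every WT library and 6 in both R6/1 libraries. Gabra5 was the lowest on this scale in every library, with 3.25% and 2.98% in R6/1 and 1.61%, 2.65% and 2.04% in WT. Gabra3 was at 8.74 ± 0.825% in R6/1 and 4.24 ± 1.45% in WT. Shares sum to a whole, so the fall of 1 gene raises the others.

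The lengths behind that signal are shorter than the merged annotated exons of the same genes, at 0.223 of them for Gabrb1 and 0.892 for Gabra5, and for 86.2% of the 16416 tested genes with both lengths. With CPM per kb of merged exons instead, a scaling chosen after these lengths were seen, Gabrd held 9.26 ± 0.517% in R6/1 and 24.5 ± 1.32% in WT (SD, n = 2 and n = 3), and Gabra4 20.8 ± 0.662% in R6/1 and 23.0 ± 2.15% in WT. The share of Gabrd was lower in R6/1 on both length scales, but its ranks depended on the lengths. On merged exons Gabrd ranked 4 and 3 in R6/1 replicates 1 and 2 and 2 in every WT library. Gabrb1, not Gabra5, had the lowest mean share on that scale, 4.25 ± 0.113% in R6/1 and 3.20 ± 0.298% in WT (SD, n = 2 and n = 3), although in WT replicate 1 Gabra3 and Gabra5 were lower.

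Of the 12 other subunit genes, 8 passed the filter and 1 was called lower, Gabra6, a subunit of cerebellar granule cells. None was called higher, and the shares over all tested genes were 12.8% lower and 9.72% higher. Gabra6 passed the filter through its WT counts, so that it was tested at all rested on the group where it was high. It had 1 count in each R6/1 library, against 18, 40 and 13 counts in WT libraries, or 0.0265 of the WT level (95% interval 0.00315 to 0.0994, for counting error only). The call was lost without R6/1 replicate 1 (edgeR adjusted p = 0.0806) or 2 (edgeR adjusted p = 0.0740) and with the choroid plexus covariate (edgeR adjusted p = 0.0622).

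Gabrg3 had 105 and 101 CPM in R6/1 libraries, against 133, 116 and 123 CPM in WT libraries, a log2 fold change of -0.27 that missed the threshold (edgeR adjusted p = 0.0514) and passed in DESeq2 (adjusted p = 0.0335). Gabrq, the theta subunit gene next to Gabra3 on the X chromosome, had 1.89 and 2.10 CPM in R6/1 libraries, against 0.762, 1.58 and 1.08 CPM in WT libraries (log2 fold change 0.81, edgeR adjusted p = 0.112). It passed without WT replicate 2 (edgeR adjusted p = 0.0362). Over the 8 tested genes the median log2 fold change was 0.03. Of the 4 untested genes, Gabrp had 0 counts in R6/1 libraries and 11 in WT libraries (95% interval of the ratio of R6/1 to WT 0 to 0.375, for counting error only).

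Summed over all 19 subunit genes, the level was 1867 and 1880 CPM in R6/1 libraries, against 1835, 2159 and 2096 CPM in WT libraries. The R6/1 sums lay inside the WT range.

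**Figure D4:**
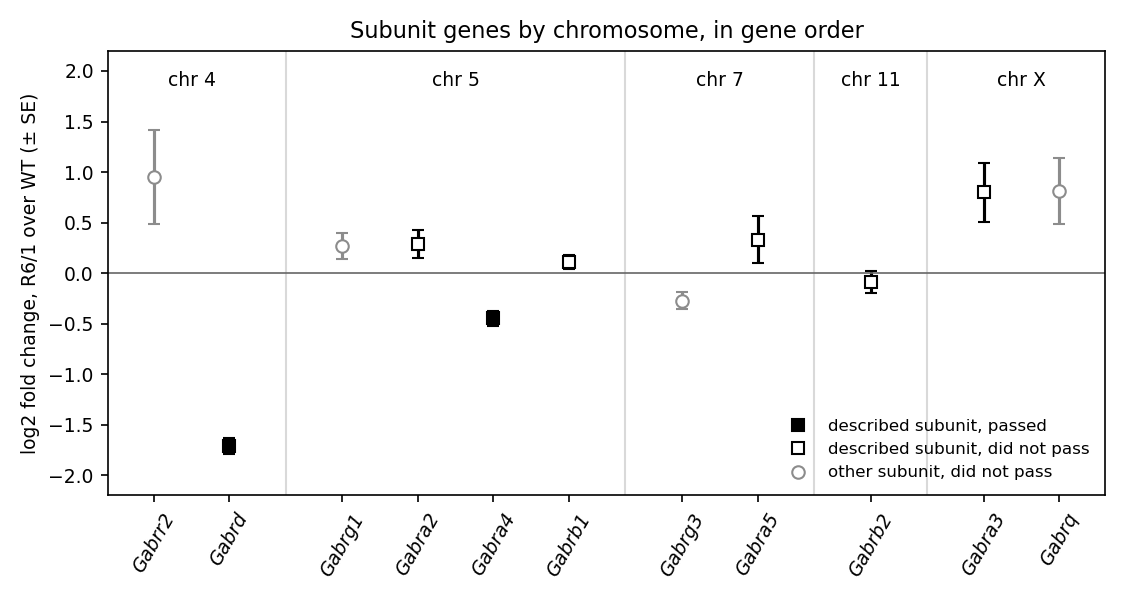
Log2 fold change of R6/1 over WT with its SE (edgeR, n = 2 R6/1 and n = 3 WT libraries) for the 7 genes described and 4 other tested subunit genes, in gene order along each chromosome, with squares for the genes described and circles for other subunits. Filled symbols passed an adjusted p of 0.05, which holds for Gabrd (-1.71) and Gabra4 (-0.45), and Gabra6, with 1 count in each R6/1 library, is not drawn.

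The subunit genes of chromosome 5 lie next to each other in the order Gabrg1, Gabra2, Gabra4 and Gabrb1, with Cox7b2 between Gabra2 and Gabra4. Within this cluster Gabra4 fell, while Gabrg1 had 56.6 and 61.3 CPM in R6/1 libraries against 41.5, 48.2 and 57.0 CPM in WT libraries (log2 fold change 0.27, edgeR adjusted p = 0.185). Gabrd lies alone on chromosome 4, apart from the Gabrr1 and Gabrr2 pair. Gabrb2 lies on chromosome 11 beside Gabra6, and Gabra5 on chromosome 7 beside Gabrg3.

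The genes most like Gabrd over the 5 libraries were Itpka, Drd2, Ppp1r1a, Neto2 and Slc5a7. Likeness was the root mean square distance between log2 CPM profiles, each centred on its own mean, and was 0.05 for Itpka and 0.08 for Slc5a7. Itpka, a kinase of inositol trisphosphate in dendritic spines, had 40.5 and 46.6 CPM in R6/1 libraries, against 133, 131 and 142 CPM in WT libraries. Drd2, the D2 dopamine receptor of indirect pathway medium spiny neurons, had 37.7 and 39.5 CPM in R6/1 libraries, against 120, 122 and 116 CPM in WT libraries. Slc5a7, the choline transporter of cholinergic interneurons, had 12.8 and 15.5 CPM in R6/1 libraries, against 47.5, 46.9 and 53.1 CPM in WT libraries. These profiles rest on 5 libraries in which 22.6% of genes were called, and they are a description.

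The log2 fold change of Gabrd lay near the median of the 20 medium spiny neuron markers, -1.65, whose range was -2.53 to -0.39. Pde10a, a striatal phosphodiesterase, fell by 2.41 and Arpp21, a cAMP-regulated phosphoprotein, by 1.68 on the log2 scale (edgeR adjusted p = 8.47e-05 and 9.46e-05). Of 14 tested markers of interneurons, 6 were called lower, against 12.8% of all tested genes, the median was -0.73, and Nos1 fell by 0.75 (edgeR adjusted p = 0.00173). Their summed levels were 149 and 160 CPM in R6/1 libraries and 232 to 295 CPM in WT libraries. What part these cell types had in the subunit levels was not tested. Pde10a, Arpp21, Nos1 and Slc5a7 are the best expressed or most firmly called of their lists.

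Genes that assemble, carry and anchor the receptors changed in both directions. Of 35 listed genes, 34 were found and tested, 13 fell, 3 rose and 18 did not pass, with a median log2 fold change of -0.13, against 12.8% lower and 9.72% higher among all tested genes. Without R6/1 replicate 1 or 2 the falls numbered 7 or 6, where 4.92% or 4.37% of all tested genes were called lower, and without R6/1 replicate 2 the rises numbered 1. With the choroid plexus covariate 8 fell and 1 rose, where 6.28% of all tested genes were called lower and 2.87% higher. Without normalization beyond the library total 7 rose, where 18.8% of all tested genes were called higher. Gphn, which encodes gephyrin, the main scaffold of inhibitory synapses, had 117 ± 4.78 CPM in R6/1 and 146 ± 10.8 CPM in WT (SD, n = 2 and n = 3) and fell by 0.32 on the log2 scale (edgeR adjusted p = 0.0343). The Gphn call was lost without WT replicate 1 (edgeR adjusted p = 0.0611) or 3 (0.0938), without R6/1 replicate 1 (0.194) or 2 (0.123) and without normalization (0.108). Nlgn2, the neuroligin of inhibitory synapses, had 88.2 ± 14.8 CPM in R6/1 and 84.7 ± 10.5 CPM in WT (SD, n = 2 and n = 3; edgeR adjusted p = 0.782).

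The falls with the smallest p-values in this list were those of Prkcb, 6030419C18Rik, Akap5 and Plcl2. Prkcb, a protein kinase C gene whose product phosphorylates receptor subunits, had 483 ± 15.7 CPM in R6/1 and 1092 ± 54.8 CPM in WT (SD, n = 2 and n = 3; log2 fold change -1.18, edgeR adjusted p = 0.000168). 6030419C18Rik, the table's name for the inhibitory synapse gene Insyn1, fell by 1.05 on the log2 scale (edgeR adjusted p = 0.000747). Akap5, an anchoring protein for kinases and phosphatases, fell by 0.96, and Plcl2, a phospholipase C-related protein that takes part in receptor trafficking, by 0.56 (edgeR adjusted p = 0.000836 and 0.00232). These 4 calls held without each library in turn.

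Hap1, the huntingtin-associated protein that links receptor vesicles to kinesin motors, had 144 ± 2.73 CPM in R6/1 and 93.1 ± 8.02 CPM in WT (SD, n = 2 and n = 3) and rose by 0.63 on the log2 scale (edgeR adjusted p = 0.00348). Rdx, which encodes radixin, an anchor of alpha 5 receptors, had 190 ± 14.0 CPM in R6/1 and 132 ± 5.58 CPM in WT and rose by 0.53 (edgeR adjusted p = 0.00455). The Rdx call was lost without R6/1 replicate 2 (edgeR adjusted p = 0.0505) and with the choroid plexus covariate (0.0605). Arfgef2, which acts in the exit of receptors from the Golgi, rose by 0.31 (edgeR adjusted p = 0.0212), a call lost without WT replicate 1 (0.0597) or 3 (0.0758), R6/1 replicate 1 (0.119) or 2 (0.117) and with the choroid plexus covariate (0.0817).

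**Figure D5:**
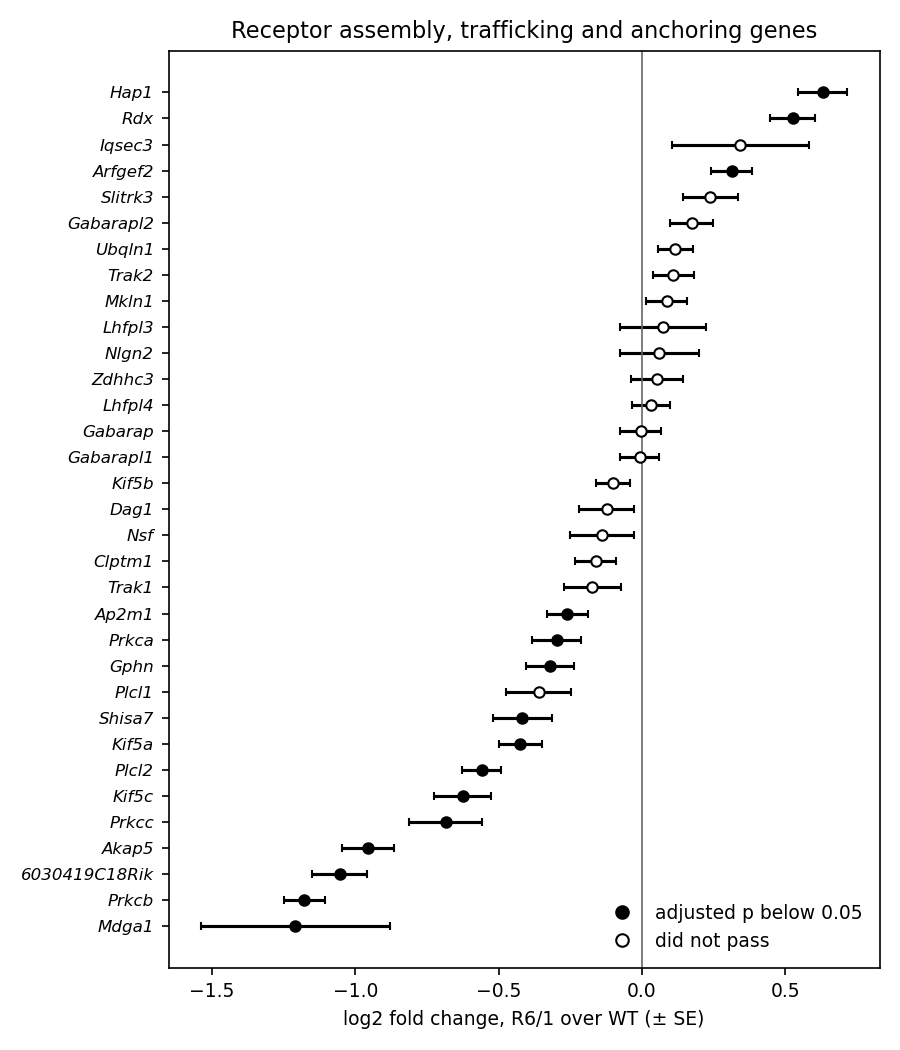
Log2 fold change of R6/1 over WT with its SE (edgeR, n = 2 R6/1 and n = 3 WT libraries) for tested genes of receptor assembly, trafficking and anchoring, ordered by fold change. Filled points passed an adjusted p of 0.05, and the points run from -1.21 to 0.63, where Hap1 is the highest.

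The direction of the current through GABA-A receptors depends on the chloride gradient. Of 14 genes of this gradient, 4 fell, 2 rose and 8 did not pass, with a median log2 fold change of -0.03, against 12.8% lower and 9.72% higher among all tested genes. The balance turned without normalization beyond the library total, to 2 lower and 5 higher. There 9.85% of all tested genes were called lower and 18.8% higher. With the choroid plexus covariate the balance was 2 lower and 1 higher, where 6.28% of all tested genes were called lower and 2.87% higher. The counts were 2 lower and 0 higher without R6/1 replicate 1, 0 higher without R6/1 replicate 2, 2 lower and 1 higher without WT replicate 3, and 1 higher without WT replicate 1. The chloride importer gene Slc12a2 had 221 ± 2.14 CPM in R6/1 and 234 ± 39.9 CPM in WT (edgeR adjusted p = 0.665), and the chloride exporter gene Slc12a5 had 419 ± 6.51 CPM in R6/1 and 399 ± 56.7 CPM in WT (SD, n = 2 and n = 3; edgeR adjusted p = 0.678). Stk39, a kinase that regulates both transporters, fell by 0.63 on the log2 scale, and Car2, a carbonic anhydrase, by 0.77 (edgeR adjusted p = 0.00274 and 0.00217). Wnk1, a kinase upstream of Stk39, rose by 0.34 (edgeR adjusted p = 0.0114). The remaining calls were the chloride channel genes Clcn2 and Clcn3, lower and higher, and Wnk3-ps, the table's name for the kinase gene Wnk3, lower, with edgeR adjusted p-values of 0.0257 to 0.0371. All but the calls of Stk39 and Car2 were lost in some of these fits.

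Of 8 genes for GABA synthesis, vesicle loading, uptake and breakdown, 1 fell, 2 rose and 5 did not pass, with a median log2 fold change of 0.08, against 12.8% lower and 9.72% higher among all tested genes. Slc32a1, the vesicular GABA transporter, had 78.9 ± 10.8 CPM in R6/1 and 55.8 ± 4.97 CPM in WT (SD, n = 2 and n = 3; edgeR adjusted p = 0.0211), and Aldh5a1, which acts in GABA breakdown, rose by 0.28 on the log2 scale (edgeR adjusted p = 0.0231). Gad1, which makes GABA, had 398 ± 25.7 CPM in R6/1 and 565 ± 41.6 CPM in WT (SD, n = 2 and n = 3; edgeR adjusted p = 0.00750). Without R6/1 replicate 1 no rise passed (edgeR adjusted p = 0.153 for Slc32a1 and 0.119 for Aldh5a1), nor did the fall of Gad1 (0.0803). Neither rise passed without WT replicate 1 or 3, 1 of them passed without R6/1 replicate 2, and without WT replicate 2 the list had 2 falls.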

How the data were processed

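RNA-seq of striatum gave 1 table with 5 libraries, 2 of R6/1 and 3 of WT mice, grouped by the labels' titles and genotype. Libraries were prepared with a stranded total RNA kit with ribosomal RNA removal, per the labels' protocols. The raw read counts per Ensembl gene are as deposited, per the file headers. The submitters' processing notes name CASAVA 1.8.2, TopHat 1.4.1, HTSeq 0.5.4p3, DESeq2 1.0.19 and the build mm9, without their roles. The authors also deposited a size-factor normalized signal per kb of gene length, log2 ratios of R6/1 over WT and p-values, used here only where named.

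Counts were fitted with edgeR 4.0.16 in R 4.3.3 (TMM, filterByExpr with a count minimum of 10 and a total of 15, quasi-likelihood test, genotype alone, Benjamini-Hochberg over 17202 genes), a script checked on simulated data. Total counts were 19630036 to 34379064 per library, and since every R6/1 library was deeper, depth and genotype cannot be told apart except through thinned counts. Replicates differed by more than sampling noise (chi-square per gene 10.6 to 19.1). Ratios within a library used counts plus 0.5 and an exact permutation test. Alternatives were RLE or no normalization, no filter, DESeq2 1.42.0, limma-voom 3.58.1, thinned counts, libraries left out, and choroid plexus or cortical markers as a covariate. The subunit genes, the lists and the pairs were chosen with earlier results of these data known. Genes of the pathway lists were named if among the 4 called with the smallest p in each direction, with Gphn, Nlgn2, Hap1, Slc12a2 and Slc12a5 always named. Cell type markers were named if among the 2 most expressed or the most firmly called of their list, except where stated. The profiles nearest Gabrd came from 12115 genes of mean log2 CPM of at least 1. Merged exons and gene order are from GENCODE M21 on GRCm38, and promoters, on GRCm38.p6, are from RefSeq. These builds differ from mm9, so no coordinate of the counted genes is given. Some genes of the lists are counted but not reported here by name.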

Additional observations from a re-analysis of the deposited data

How the results depend on the processing

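The count of 2 subunit genes lower in R6/1 became 1 with the choroid plexus covariate and 1 to 2 when each library was left out in turn. The count of 0 higher (edgeR, with 3 of the 7 genes at an unadjusted p below 0.05 in either direction and 0 higher in DESeq2) became 1 without normalization (Gabrb1), 1 without a filter on low counts, 1 with WT replicates 1 and 2 both left out, 2 with the cortical covariate and 0 to 2 on leaving out each library. Of the other subunits, 1 was lower in R6/1, and 2 were without a filter, in DESeq2, in limma-voom, with thinned counts and with the cortical covariate, 0 with the choroid plexus covariate, and 0 to 2 on leaving out each library, while 0 to 1 were higher there. Of the assembly genes, 13 were lower, 8 with the choroid plexus covariate and 6 to 13 on leaving out each library, and 3 were higher, 7 without normalization, 1 with the choroid plexus covariate and 1 to 4 on leaving out each library. Over all tested genes, 12.8% were lower and 9.72% higher. The lower share was 6.28% with the choroid plexus covariate, 12.2% with the cortical covariate and 9.6% without a filter. The higher share was 18.8% without normalization, 7.6% without a filter, 2.87% with the choroid plexus and 9.75% with the cortical covariate. Leaving out each WT library in turn gave 9.75% to 14.9% lower and 4.84% to 13.2% higher. Of the 17202 genes, 6486 had an unadjusted edgeR p below 0.05. The log2 fold change of Gabrb2 changed sign to 0.0281 without normalization and to 0.0031 with the cortical covariate. Without normalization the median over all genes moved up by 0.118 on the log2 scale, and relative to that shift Gabrb2 was still lower. The log2 ratio difference ranged over left-out libraries from -1.29 to -1.21 for Gabrd over Gabra4, -0.93 to -0.64 for Gabra4 over Gabra2, -0.0940 to 0.37 for Gabra5 over Gabra2, with the sign changed without WT replicate 1 (-0.0940) or 3 (-0.0510), 0.33 to 0.94 for Gabra3 over Gabra2, -0.30 to -0.11 for Gabrb2 over Gabrb1 and -0.61 to -0.49 for Gabra4 over Gabrb1. With merged exon lengths, a choice made after seeing the data, the share difference between R6/1 and WT was 2.38 points in place of 1.02 for Gabra5, 6.00 in place of 3.79 for Gabrb2 and -15.2 in place of -10.7 for Gabrd. The cause of these changes was not tested. Without 1 R6/1 library, or with WT replicates 1 and 2 left out, a lone library is assumed to vary like the other group. No paired analysis was possible because the labels give the groups no shared replicate numbers.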

Other observations

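Neurosteroids enhance the current of delta-containing receptors. Of 7 listed genes of their synthesis, 6 were found and 5 tested. Of these 0 fell and 1 rose (edgeR), against 12.8% lower and 9.72% higher among all tested genes. Their median log2 fold change was -0.40, and 3 had an unadjusted edgeR p below 0.05, as did 6486 of all 17202 tested genes. Akr1c14, whose enzyme makes allopregnanolone, had 3.30 and 3.60 CPM in R6/1 libraries, against 1.79, 2.26 and 1.89 CPM in WT libraries, and rose by 0.80 on the log2 scale (edgeR adjusted p = 0.0327). The groups did not overlap, but the rise was lost without WT replicate 1 (edgeR adjusted p = 0.0890) or 3 (0.0903), R6/1 replicate 1 (0.127) or 2 (0.179). Without WT replicate 1 the list had 1 fall, where 10.1% of all tested genes were lower.

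Among the other cell types, 6 of 12 astrocyte markers were lower and 1 higher in R6/1, with summed levels of 3906 and 3835 CPM in R6/1 libraries and 5465 to 5680 CPM in WT libraries. The share over all tested genes, for this and the lists that follow, was 12.8% lower and 9.72% higher. The astrocyte markers lower in R6/1 numbered 3 without normalization beyond the library total or without WT replicate 3, where 9.85% and 9.75% of all tested genes were lower. They numbered 2 without R6/1 replicate 1 or 2, where 4.92% and 4.37% were lower. Of 12 oligodendrocyte markers 3 were lower and 2 higher, with 0 lower without WT replicate 3 or either R6/1 replicate and 1 higher without either R6/1 replicate. Of 8 oligodendrocyte precursor markers 0 were lower and 1 was higher. This was Sox10, which is on the oligodendrocyte list too and is counted among its higher markers. Without WT replicate 2 the number of precursor markers higher was 4, where 13.2% of all tested genes were higher. Of 10 endothelial and pericyte markers 1 was lower and 0 higher, with 2 of each without WT replicate 2, where 14.9% of all tested genes were lower, and 0 lower without any other library. Of 13 tested markers of thalamus, septum and pallidum 1 was lower and 0 higher, with 2 lower without WT replicate 3. Of 10 microglial markers none passed in edgeR and 0 had an unadjusted p below 0.05, with 0 also in DESeq2 and 1 lower without WT replicate 2.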
